A study of Mus musculus with 12 samples.

Results

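The integrated stress response and its transcription factor ATF4 were followed through 42 genes, chosen by name for their roles as stress transcription factors, kinases and a phosphatase of the translation factor eIF2α, stress effectors, enzymes of amino acid synthesis, amino acid transporters and tRNA synthetases. The list was drawn up with earlier results of these data known, so its shares beside all genes are not an independent test. All 42 were among the 34745 genes of the count table, and all 42 passed the filter on low counts in every comparison. The RNA came from MLE-12 cells, a mouse line of alveolar type II (AT II) epithelial cells of the lung, in 12 libraries. The LPS group received lipopolysaccharide at 100 ng/mL in 21% oxygen, and the LPS + M2-Exo group also received 10 µg/mL of M2-Exo, the exosomes released by MH-S alveolar macrophages that had been polarised with IL-4. The Hyp group was kept in 85% oxygen, and the Hyp + M2-Exo group was kept in the same oxygen with the same dose of M2-Exo. Each group held 3 libraries, taken after 24 h, and all came from 1 cell line. Untreated cells are not among these libraries, so a difference between hyperoxia and LPS gives the distance between both injuries and not the change from rest. LPS, oxygen and anything else that differed between both experiments cannot be told apart. Nothing in the labels says that libraries of a group came from separate cultures, so the p-values measure the spread between these libraries, which may be technical.

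Cells under many kinds of stress phosphorylate eIF2α through a small family of kinases, among them PERK, which senses unfolded protein in the endoplasmic reticulum, and GCN2, which senses uncharged tRNA. General translation then falls while the mRNA of ATF4 is translated more, so that the protein can rise without its mRNA. ATF4 binds DNA with C/EBP family partners and induces genes that make, import and charge amino acids, together with genes such as Ddit3, which encodes the pro-apoptotic factor CHOP, and Trib3, a pseudokinase that restrains the response. Amino acid supply through this pathway also feeds cysteine and glutathione synthesis.

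Total counts per library were 16021833 to 19185116 in the groups with LPS and 20231632 to 24074616 in the groups with hyperoxia. The summed level of 14 AT II and epithelial marker genes was 590 to 615 CPM (counts scaled to library depth by the trimmed mean of M values) in the groups with LPS and 377.8 to 414.3 CPM in the groups with hyperoxia. Nkx2-1, Abca3, Sftpc and Krt8 were present, while Sftpa1 and Sftpd had at most 1 count in any library and Krt18 at most 4. Epcam was also low, at 6 to 21 counts. The summed level of 14 macrophage markers was 434.6 to 483 CPM in LPS, 343 to 390.5 CPM in LPS + M2-Exo, 119.4 to 123.2 CPM in Hyp and 94.1 to 138.1 CPM in Hyp + M2-Exo. Ptprc, Adgre1, Csf1r and Lyz2 were present in every library, Chil3 was at 0 in every library and Arg1 had at most 3 counts. The share of counts in mitochondrial genes was 3.62 to 4.17% in the groups with LPS and 2.62 to 2.92% in those with hyperoxia, and 16502 to 16865 genes were detected against 17687 to 17897. In Hyp against LPS, 2 of 12 macrophage markers tested were higher and 9 lower at an adjusted p under 0.05 (edgeR). Of 10 AT II and epithelial markers tested, 2 were higher and 8 lower, against 38.0% and 37.8% of all genes. Both marker sums, the mitochondrial share and the number of genes detected moved with the injury, and the macrophage sum was lower with M2-Exo in LPS. Their part in the results that follow was not tested, and in such bulk RNA fewer cells of a type and less RNA per cell cannot be told apart.

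The promoters were compared first, since ATF4 with its C/EBP partners binds a composite element that can be written TGATGNAA. RefSeq promoters of build GRCm38.p6, from 250 bases before to 50 bases after the start, were at hand for 36 of the 42 genes. Cth, Slc7a5, Slc1a5, Cars, Nars and Wars were not matched. The 8 letters were searched on both strands and were found for 11 of the 36 genes (30.6%), against 1219 of all 27025 genes with a promoter (4.51%). The match is to letters and is not evidence of binding. The 42 genes were chosen for their place in this response, so the higher share is not independent of that choice. Windows were cut where the element lay wholly before the start, whatever the fold change between both injuries. The following windows hold the element and 11 bases to each side, with the element in capitals. They are given 5′ to 3′ on the strand of the gene.
Chac1, chr2:119351038-119351067, plus strand: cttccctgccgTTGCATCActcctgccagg
Atf3, chr1:191183425-191183454, minus strand: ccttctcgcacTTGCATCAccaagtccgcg
Vldlr, chr19:27216809-27216838, plus strand: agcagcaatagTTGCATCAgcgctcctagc
Asns, chr6:7693214-7693243, minus strand: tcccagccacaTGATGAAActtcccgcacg
Nupr1, chr7:126625562-126625591, minus strand: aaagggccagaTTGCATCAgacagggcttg
Gars, chr6:55037960-55037989, plus strand: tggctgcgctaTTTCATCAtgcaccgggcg
Pycr1, chr11:120643833-120643862, minus strand: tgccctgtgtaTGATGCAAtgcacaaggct
The Asns and Pycr1 promoters carried the element in the forward orientation, and the other 5 shown carried its reverse complement. In the GENCODE M21 annotation, the elements of Chac1, Gars and Pycr1 lay upstream of the gene, that of Atf3 in an intron of a longer transcript and that of Vldlr in an exon of a non-coding transcript, while those of Asns and Nupr1 fell in the UTR of a transcript that starts earlier than the RefSeq one. Trib3, Slc1a4 and Iars also had a match at or next to the start, where no full window could be cut.

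The level of Atf4 itself was read first. Atf4 (chr15:80255184-80257540, plus strand) stood at 247, 243 and 262 CPM in LPS and at 367, 370 and 371 CPM in Hyp. With M2-Exo it stood at 239, 255 and 265 CPM in LPS and at 384, 390 and 373 CPM in hyperoxia. All 6 libraries with hyperoxia lay above all 6 with LPS, and the libraries with and without M2-Exo overlapped in LPS, while in hyperoxia those with M2-Exo were all slightly higher. Per length, Atf4 was among the most abundant of the 42 transcripts, at 141.2 ± 5.17 FPKM in LPS (FPKM, fragments per kilobase of gene length scaled to library depth; SD, n = 3). The log2 fold change of Hyp against LPS was 0.56 ± 0.04 (SE), with an adjusted p of 3.2e-06 by the quasi-likelihood F test of edgeR, adjusted over all 13805 genes tested. This mRNA difference was smaller than that of many ATF4 targets, and the protein was not measured here.

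The CHOP gene Ddit3 (chr10:127290774-127296288, plus strand) showed the widest gap. Its levels were 12.5, 11.3 and 11.1 CPM in LPS and 105.9, 107 and 108.5 CPM in Hyp. With M2-Exo they were 9.92, 10.2 and 9.33 CPM in LPS and 102.2, 107 and 113.6 CPM in hyperoxia. The groups with hyperoxia stood far above those with LPS in every library, and the log2 fold change of Hyp against LPS was 3.2 ± 0.06 (adjusted p = 1.6e-08, edgeR). Ddit3 overlaps the opposite-strand gene Mars, which had 1573 to 1834 counts in the groups with LPS and 3392 to 4446 counts in those with hyperoxia. Whether counting used the strand is not given in the sources used here, so reads of both genes could not be told apart.

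Trib3 (chr2:152337422-152344032, minus strand) and Chac1 (chr2:119351229-119354381, plus strand) followed the same order, and neither overlaps another gene. Trib3 was measured at 11.1, 10.6 and 12.1 CPM in LPS and at 75.2, 78.9 and 77.1 CPM in Hyp. With M2-Exo it was measured at 11.4, 13.7 and 13.6 CPM in LPS and at 76.4, 75.5 and 81 CPM in hyperoxia. Chac1, which degrades glutathione, was measured at 8.02, 5.43 and 6.36 CPM in LPS and at 30.3, 32.9 and 32.4 CPM in Hyp. The corresponding Chac1 levels with M2-Exo were 8.12, 7.38 and 8.54 CPM in LPS and 33.6, 32.6 and 30.8 CPM in hyperoxia. For both genes the injuries were separated in every library. The log2 fold changes of Hyp against LPS were 2.77 ± 0.06 for Trib3 (adjusted p = 2.7e-08) and 2.27 ± 0.12 for Chac1 (adjusted p = 1.1e-06), both by edgeR.

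Asns, asparagine synthetase and a much used readout of amino acid limitation, lies at chr6:7675169-7693254 on the minus strand. It stood at 80.3, 78.9 and 79.8 CPM in LPS and at 262.6, 288.6 and 262.7 CPM in Hyp. In LPS + M2-Exo it stood at 79.5, 92.7 and 91.9 CPM, and in Hyp + M2-Exo at 276.3, 272.3 and 294.9 CPM. Every library with hyperoxia was above every library with LPS, with a log2 fold change of 1.77 ± 0.04 without M2-Exo (adjusted p = 3.6e-08, edgeR).

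**Figure D1:**
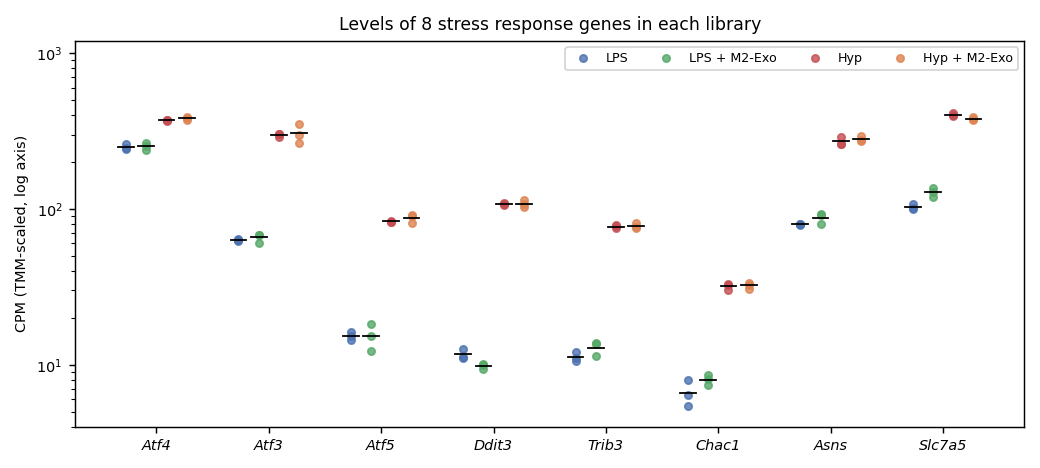
Levels of 8 genes in each of the 12 libraries, in CPM on a log axis; points are libraries, coloured by group, and short lines are group means (n = 3). For all 8 genes the 6 libraries with hyperoxia lie above the 6 with LPS, from Atf4 at 239 to 390 CPM to Chac1 at 5.43 to 33.6 CPM.

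The first comparison asked how far the response differed between hyperoxia and LPS, both without M2-Exo. Of the 42 genes, 38 passed an adjusted p of 0.05 (90.5%), against 75.8% of all 13805 genes tested, so that a call alone says little here. The directions were uneven: 35 were called higher in Hyp and 3 lower, where 38.0% of all genes were called higher and 37.8% lower. At least 2-fold higher were 24 of the 42 (57.1%), against 10.2% of all genes. The median log2 fold change of the 42 was 1.18, beside 0.0091 over all genes. These values describe a list chosen with earlier results of these data known.

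The stress transcription factors ranged from a log2 fold change of 0.026 to 3.2. Of these 7, 6 were called higher, against 38.0% of all genes. Atf5, a factor translated under the same control as ATF4, stood at 15.3, 16.1 and 14.3 CPM in LPS and at 83.9, 82.7 and 82.6 CPM in Hyp. In LPS + M2-Exo it spread from 12.2 to 18.4 CPM and in Hyp + M2-Exo from 81.3 to 91.1 CPM. Its log2 fold change was 2.45 ± 0.06 (adjusted p = 2.7e-08, edgeR), while the opposite-strand gene Il4i1, which it overlaps, had 2873 to 3864 counts in the groups with LPS and 5316 to 6935 in those with hyperoxia. Atf3, an early stress factor of the same family, was higher in Hyp by 2.24 ± 0.03, and the C/EBP partner Cebpg by 1.16 ± 0.05. Nupr1, a small stress-induced chromatin protein, was higher by 0.74 ± 0.15. Cebpb did not pass the test, at 0.026 ± 0.052 (adjusted p = 0.666, edgeR), and its value turned to -0.027 without LPS replicate 1.

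The regulators of eIF2α divided. Ppp1r15a encodes GADD34, which targets the phosphatase to eIF2α, and was higher by 1.36 ± 0.19 on the log2 scale. Its libraries were uneven within the LPS groups, at 41.7, 73 and 71.4 CPM in LPS and 71.8, 71.5 and 40.9 CPM in LPS + M2-Exo, with 1 low library in each. In Hyp they were 174.4, 154.9 and 148.4 CPM and in Hyp + M2-Exo 147.8, 159.9 and 161.4 CPM, clear of all LPS values. This gene's per-library values were given after they had been seen. Eif2ak3, the gene of PERK, stood at 83.3, 82.3 and 86.6 CPM in LPS and at 85.6, 82 and 84 CPM in Hyp, with a log2 fold change of -0.0034 ± 0.04 and overlapping groups. The Eif2ak3 value was above 0 with library size alone (0.0865) and with limma, which without a filter called it higher (0.0789, adjusted p = 0.0466). Eif2ak4, the gene of GCN2, stood at 44.8, 44.5 and 43.9 CPM in LPS and at 40.5, 37.8 and 37.3 CPM in Hyp. With M2-Exo it stood at 43, 43.2 and 42.2 CPM in LPS and at 39.7, 37.4 and 37 CPM in hyperoxia. This lower level in hyperoxia was small, -0.21 ± 0.05 on the log2 scale (adjusted p = 0.0069, edgeR), and the call was lost when libraries were scaled by size alone (-0.12) and with limma on log2(FPKM + 1) (-0.096).

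Of the 6 stress effectors 5 were called higher and 1 lower, against 38.0% and 37.8% of all genes. Besides Trib3 and Chac1, the receptor gene Vldlr was higher in Hyp by 2.16 ± 0.09. Sesn2, a leucine sensor that restrains mTORC1, was higher by 1.66 ± 0.06. Stc2, a secreted glycoprotein induced in endoplasmic reticulum stress, was higher by 1.35 ± 0.12. Ddit4, whose product REDD1 also restrains mTORC1 and which is induced by low oxygen too, went the other way. It stood at 39.4, 40.6 and 39.2 CPM in LPS and at 30.8, 29.1 and 30.6 CPM in Hyp. In LPS + M2-Exo it stood at 41, 42.2 and 39.3 CPM and in Hyp + M2-Exo at 33.8, 32.3 and 36.9 CPM. All libraries with hyperoxia lay below all with LPS. Ddit4 was lower in Hyp by 0.4 ± 0.05 on the log2 scale (adjusted p = 0.00017, edgeR).

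All 6 genes of serine and one-carbon synthesis were called higher, with a median log2 fold change of 1.55. Over all genes 38.0% were called higher. The serine pathway runs from Phgdh through Psat1 to Psph. These were higher in Hyp by 1.49 ± 0.04, 0.95 ± 0.09 and 1.91 ± 0.06. The mitochondrial folate enzymes Shmt2 and Mthfd2 were higher by 1.62 ± 0.04 and 1.75 ± 0.03, and Mthfd1l by only 0.21 ± 0.04. Psph and Phgdh share stretches of at least 97% identity with other genes (Cct6a for Psph, which it also overlaps by position, and 3 predicted genes for Phgdh), so their counts are less certain. The same holds for Aars (up to 1326 bases), Slc6a9 (up to 1261 bases), Cars, Eprs, Xpot, Eif2ak3 and Cebpb. The genes that match Slc6a9, Cebpb and Eif2ak3 also overlap them by position, on the opposite strand. Ddit3 shares such a stretch, of 105 bases, with another entry of the same name.

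Beside 38.0% of all genes, 4 of 5 other enzymes of amino acid synthesis were called higher. Next to Asns these were Cth, which makes cysteine from cystathionine, at 1.2 ± 0.14, the proline pathway gene Aldh18a1 at 0.88 ± 0.04 and the alanine aminotransferase Gpt2 at 0.81 ± 0.05. Cth was read at low depth, from 46 to 77 counts in the groups with LPS and from 176 to 235 in those with hyperoxia, and stood at 3.61 to 4.14 CPM in LPS and 7.48 to 9.91 CPM in Hyp. Pycr1, which completes proline synthesis, did not pass the test. It stood at 39, 40.8 and 45.9 CPM in LPS and at 37.9, 43.6 and 38.7 CPM in Hyp, with overlapping groups and a log2 fold change of -0.065 ± 0.083. Without LPS replicate 3 this value was 0.0046, and it was also above 0 when libraries were scaled by size alone and with limma.

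The transporters differed in direction. Slc7a5, the light chain of the large neutral amino acid transporter LAT1, stood at 101.6, 100.2 and 106.9 CPM in LPS and at 413.3, 393.8 and 401.1 CPM in Hyp, a log2 fold change of 1.97 ± 0.04. Slc1a4, which carries neutral amino acids, was higher in Hyp by 1.64 ± 0.09. The cationic amino acid transporter Slc7a1 was higher by 1.25 ± 0.04 and the glycine transporter Slc6a9 by 1.18 ± 0.06. Slc38a2, the glutamine and alanine transporter SNAT2, had the opposite order. It stood at 368.7, 355.6 and 392.3 CPM in LPS and at 245.1, 228.1 and 237.3 CPM in Hyp. With M2-Exo it stood at 365.3, 362.8 and 379.2 CPM in LPS and at 251.8, 246.8 and 296.3 CPM in hyperoxia. No library with hyperoxia reached the lowest library with LPS. Slc38a2 was lower in Hyp by 0.65 ± 0.05 on the log2 scale (adjusted p = 4.6e-06, edgeR). The glutamine transporter Slc1a5 was measured at 80.7 to 83.7 CPM in LPS and at 85.8 to 88.2 CPM in Hyp. Its log2 fold change of 0.094 ± 0.038 missed the threshold (adjusted p = 0.051) and passed it without LPS replicate 3 (0.11, adjusted p = 0.0454) or without Hyp replicate 1 (0.113, adjusted p = 0.0418), all by edgeR. It also passed with RLE size factors (adjusted p = 0.0471), with library size alone (0.00194), with at least 10 counts in every library (0.0293) and with limma at each setting (adjusted p of 0.00145 to 0.00341).

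All 9 genes that charge or export tRNA were called higher, against 38.0% of all genes. Their log2 fold changes covered a narrow range from 0.55 to 1.46, with a median of 0.9. The synthetase for alanine, Aars, was highest at 1.46 ± 0.04, followed by those for cysteine, Cars, at 1.29 ± 0.05, asparagine, Nars, at 1.18 ± 0.03, and tryptophan, Wars, at 1.03 ± 0.05. The synthetases Eprs (0.9 ± 0.04), Sars (0.89 ± 0.03), Iars (0.68 ± 0.04) and Gars (0.55 ± 0.03) were below 2-fold, as was the tRNA exporter Xpot (0.75 ± 0.03). In none of the 9 genes did a library with LPS overlap one with Hyp.

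**Figure D2:**
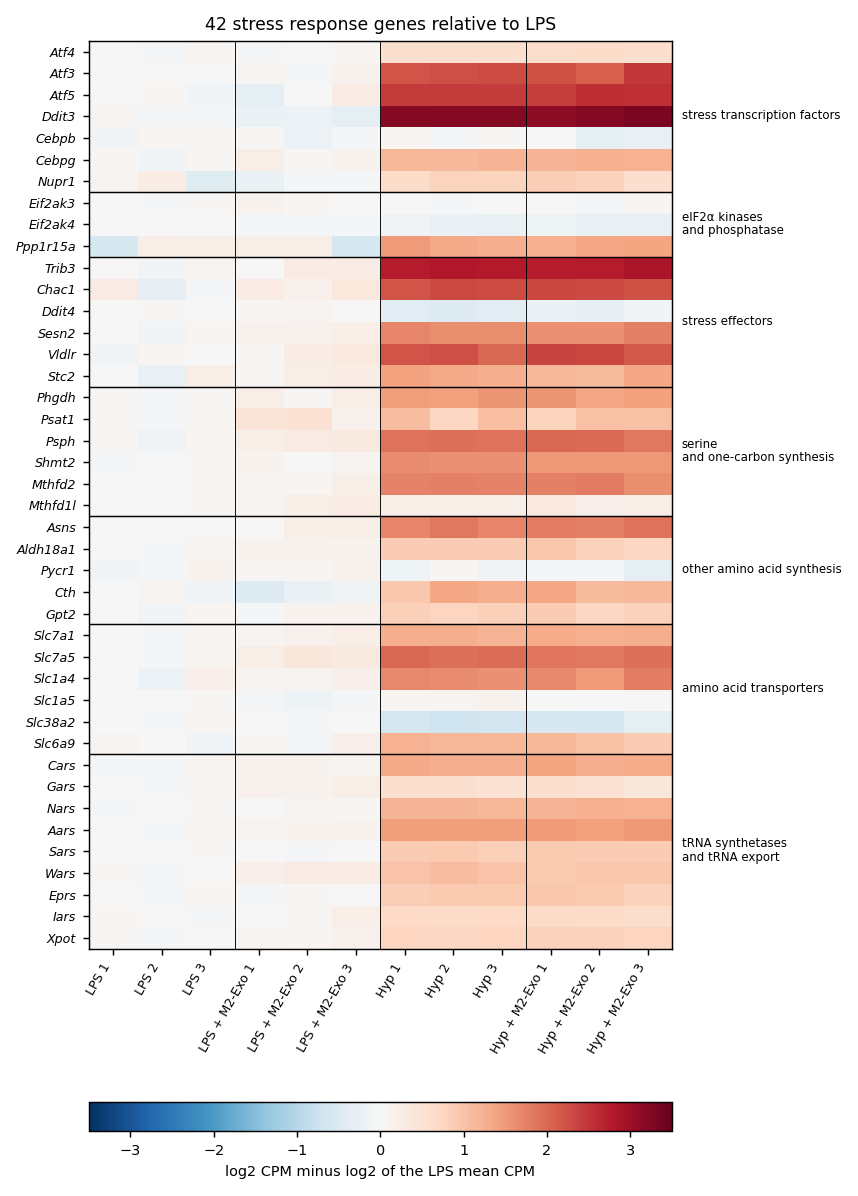
Each row is 1 of the 42 genes, grouped by role, and each column 1 library; colour gives log2 CPM minus the log2 of that gene's mean CPM in LPS. The right-hand 6 columns, with hyperoxia, are red for most rows, with Slc38a2 and Ddit4 blue, while the columns with and without M2-Exo look alike within each injury.

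The genes whose promoter held the element were described separately. Of these 11, 10 were called higher in Hyp, against 38.0% of all genes tested. The log2 fold changes of the 11 had a median of 1.64 and a range of -0.065 (Pycr1) to 2.77 (Trib3). Of the 25 genes without it in this window, 20 were called higher, with a median of 0.95 and a range of -0.65 to 3.2. Both ranges overlapped over most of their length, and Ddit3, with the largest fold change, was among those without the letters.

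With M2-Exo in both injuries the pattern was much alike. Hyp + M2-Exo against LPS + M2-Exo gave 38 calls among the 42 genes, 34 higher and 4 lower, beside 73.7% of all 13660 genes called, 37.1% called higher and 36.5% called lower. At least 2-fold higher were 22 of the 42 (52.4%), against 10.4% of all genes, and the median log2 fold change was 1.06 beside 0.0083 over all genes. Ddit3 (3.46 ± 0.07), Trib3 (2.59 ± 0.08) and Atf5 (2.51 ± 0.13) led, followed by Atf3 at 2.21 ± 0.1, Vldlr at 2.08 ± 0.11 and Chac1 at 2.01 ± 0.09. Atf4 was higher by 0.59 ± 0.04, Asns by 1.67 ± 0.07 and Slc7a5 by 1.57 ± 0.05.

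Slc38a2 (-0.48 ± 0.07), Ddit4 (-0.25 ± 0.07), Pycr1 (-0.22 ± 0.08) and Eif2ak4 (-0.17 ± 0.06) were called lower. Of these, only Slc38a2 kept its call under every alternative. Pycr1, at 43.2, 44.3 and 45.6 CPM in LPS + M2-Exo and 40.3, 40.5 and 33.1 CPM in Hyp + M2-Exo, passed with an adjusted p of 0.041 (edgeR) and lost its call without Hyp + M2-Exo replicate 3 (-0.13) and without each LPS + M2-Exo replicate (-0.25, -0.23 and -0.21). Eif2ak4 lost its call without LPS + M2-Exo replicate 1 (-0.17) or 2 (-0.17) and without Hyp + M2-Exo replicate 2 (-0.15) or 3 (-0.15). Ddit4 lost its call with library size scaling (-0.16) and with limma at a pseudocount of 0.1 (-0.16) or without a filter (-0.15). Pycr1 and Eif2ak4 each lost the call under 10 of 16 alternatives in all, library size alone and limma among them. The genes that did not pass were Slc1a5 (0.11 ± 0.05), Mthfd1l (0.04 ± 0.07), Cebpb (-0.11 ± 0.09) and Eif2ak3 (-0.085 ± 0.057). Slc1a5 passed with library size alone (0.2, adjusted p = 0.00971), with limma at each setting (adjusted p of 0.0117 to 0.0139) and with all 12 libraries in 1 edgeR fit (adjusted p = 0.0368). Cebpb passed without Hyp + M2-Exo replicate 1, at -0.21, and Mthfd1l turned to -0.0082 without LPS + M2-Exo replicate 1 and to -0.0053 without Hyp + M2-Exo replicate 1.

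**Figure D3:**
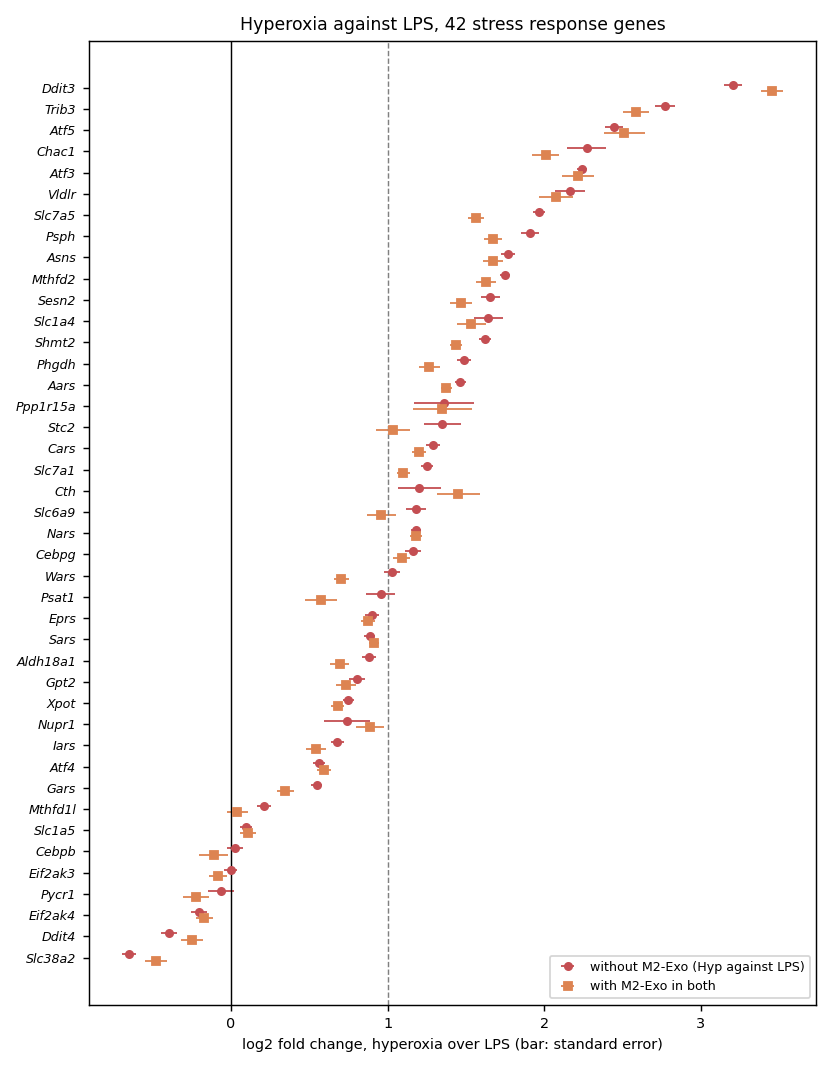
The log2 fold change of hyperoxia over LPS for each of the 42 genes, without M2-Exo (circles) and with M2-Exo in both groups (squares); bars are standard errors and the dashed line marks 2-fold. Ddit3 at 3.2 and 3.46 is at the top and Slc38a2 at -0.65 and -0.48 at the bottom.

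The second question was whether M2-Exo changed these genes within an injury. In LPS, none of the 42 genes passed an adjusted p of 0.05 by edgeR, where 0.187% of the 13353 genes tested did. DESeq2 called 2 of them, Psat1 and Slc7a5, and a fit of all 12 libraries called Slc7a5. At an unadjusted p under 0.05 there were 15 of the 42 (35.7%), against 11.1% of all genes; 14 of these were higher with M2-Exo, against 4.99% of all genes, and 1 was lower. This count fell to 9 when LPS replicate 2 was left out, and to 9 when LPS + M2-Exo replicate 3 was. All 3 libraries with M2-Exo lay above all 3 without for 14 genes, against 8.08% of all genes. The median log2 fold change was 0.1 beside 0.0027 over all genes, and 33 of the 42 values were above 0.

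The values with an unadjusted p under 0.05 were those of amino acid supply and tRNA charging more than those of the stress factors. Slc7a5 was at 119.6, 136.5 and 127.7 CPM in LPS + M2-Exo, above its 100.2 to 106.9 CPM in LPS. The log2 fold change was 0.31 ± 0.05 with an adjusted p of 0.135 by edgeR, and 0.00137 to 0.391 over the alternatives. Psat1 was at 207.6, 212.1 and 167.5 CPM with M2-Exo and at 154.4, 142.4 and 154.5 CPM without, which did not overlap. Its log2 fold change was 0.38 ± 0.09 (adjusted p = 0.205, edgeR), and without LPS + M2-Exo replicate 3 it was 0.48 (adjusted p = 0.0258), which passed the threshold.

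Wars had log2 values of 0.24 ± 0.05 (55.2, 58.9 and 58.2 CPM with M2-Exo and 50, 46 and 49.4 CPM without) and Psph of 0.27 ± 0.07 (34.3, 35.8 and 36.6 CPM and 30.3, 27 and 31.2 CPM). Slc7a1, at 220.2, 229.2 and 239.4 CPM with M2-Exo and 202.9, 198.5 and 213.3 CPM without, had 0.16 ± 0.04. These genes were chosen for their values in each library after the values had been seen. The remaining 9 genes above 0 with an unadjusted p under 0.05 were Mthfd1l (0.2), Sesn2 (0.18), Phgdh (0.17), Gars (0.15), Aldh18a1 (0.14), Mthfd2 (0.12), Cars (0.12), Aars (0.11) and Xpot (0.11). In serine and one-carbon synthesis 5 of 6 genes had an unadjusted p under 0.05, and in the tRNA group 5 of 9.

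Of the 7 stress transcription factors 4 were above 0, with a median log2 fold change of 0.0061. The 6 stress effectors were all above 0, with a median of 0.187, beside 0.186 in serine and one-carbon synthesis and 0.107 in the tRNA group. Only 1 of these effectors had an unadjusted p under 0.05, so the groups differed less in size than in such counts. Atf4 differed by 0.014 ± 0.048 on the log2 scale, a value that turned to -0.012 without LPS replicate 2 and to -0.021 without LPS + M2-Exo replicate 3. Trib3 (0.19 ± 0.1), Chac1 (0.28 ± 0.15) and Asns (0.14 ± 0.06) had overlapping groups. Ddit3 was the only gene of the 42 below 0 with an unadjusted p under 0.05, at -0.25 ± 0.09 (adjusted p = 0.378, edgeR), its 3 libraries with M2-Exo all below the 3 without. The macrophage marker sum, given above, was also lower in all 3 libraries of LPS + M2-Exo than in LPS; its part in these differences was not tested.

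In hyperoxia, none of the 42 genes passed by edgeR or by any of the alternatives, where edgeR called 0.101% of the 13815 genes tested. An unadjusted p under 0.05 was reached by 5 of the 42 (11.9%), close to the 8.48% of all genes. This count was 2 without Hyp replicate 1, 3 without Hyp replicate 2, 1 without Hyp replicate 3, 3 without Hyp + M2-Exo replicate 2 and 3 without Hyp + M2-Exo replicate 3. The 42 values were 21 above and 21 below 0, with a median of -0.0027. Shmt2 was at 479.9, 482.5 and 482.6 CPM with M2-Exo, below its 525.3, 509.5 and 512.2 CPM without, a log2 difference of -0.1 ± 0.03. The other 4 were Cebpb (-0.22 ± 0.08), Slc7a5 (-0.093 ± 0.034), Slc1a5 (-0.092 ± 0.038) and Ddit4 (0.18 ± 0.07). Atf4 differed by 0.043 ± 0.03 and Asns by 0.046 ± 0.05, and the levels of Ddit3, Trib3 and Chac1 given above overlapped between Hyp and Hyp + M2-Exo.

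**Figure D4:**
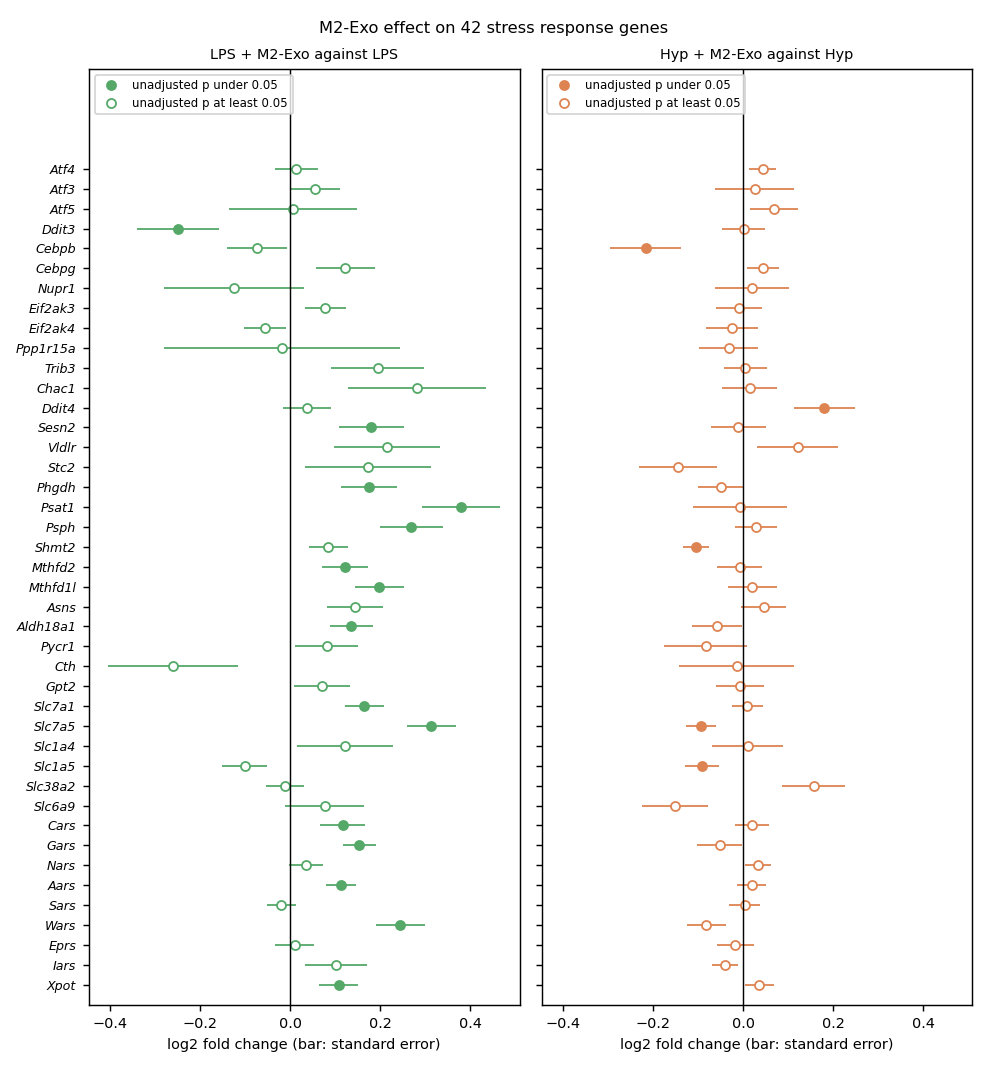
The log2 fold change with M2-Exo over without for each of the 42 genes, in LPS (left) and in hyperoxia (right); bars are standard errors, and filled points have an unadjusted p under 0.05. In LPS 33 points lie right of 0 and 15 are filled, and in hyperoxia 21 lie right of 0 and 5 are filled; none passes after adjustment.

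The difference between both M2-Exo effects was tested itself, as an interaction over the 12 libraries. None of the 42 genes passed an adjusted p of 0.05 by edgeR, where 0.0352% of all 14187 genes did. DESeq2 called Slc7a5 and Wars. An unadjusted p under 0.05 was reached by 11 of the 42 (26.2%), against 9.78% of all genes, and 10 of these were below 0, that is, with a lower M2-Exo effect in hyperoxia than in LPS, against 4.93% of all genes. The count of 11 became 17 when LPS replicate 3 was left out, 6 for LPS replicate 2, 7 for LPS + M2-Exo replicate 3 and 7 for Hyp replicate 3. The median was -0.092 beside 0.0013 over all genes.

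Slc7a5 had the largest difference, -0.4 ± 0.06 on the log2 scale, with an adjusted p of 0.0775 by edgeR and of 8.8e-05 to 0.23 over the alternatives. Its levels with M2-Exo were above those without in LPS and, at 374.8, 372.9 and 389.2 CPM, below them in hyperoxia. Without LPS + M2-Exo replicate 1 the difference passed (-0.45, adjusted p = 0.0216, edgeR). Wars had -0.32 ± 0.07 (adjusted p = 0.202, edgeR), being at 92.2, 95.3 and 93.1 CPM in Hyp + M2-Exo and at 96.1, 103.2 and 96.5 CPM in Hyp. The others below 0 were Psat1 (-0.38), Psph (-0.23), Phgdh (-0.22), Gars (-0.2), Aldh18a1 (-0.19), Shmt2 (-0.18), Mthfd1l (-0.17) and Slc7a1 (-0.15), and Ddit3 was above 0 at 0.26.

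**Figure D5:**
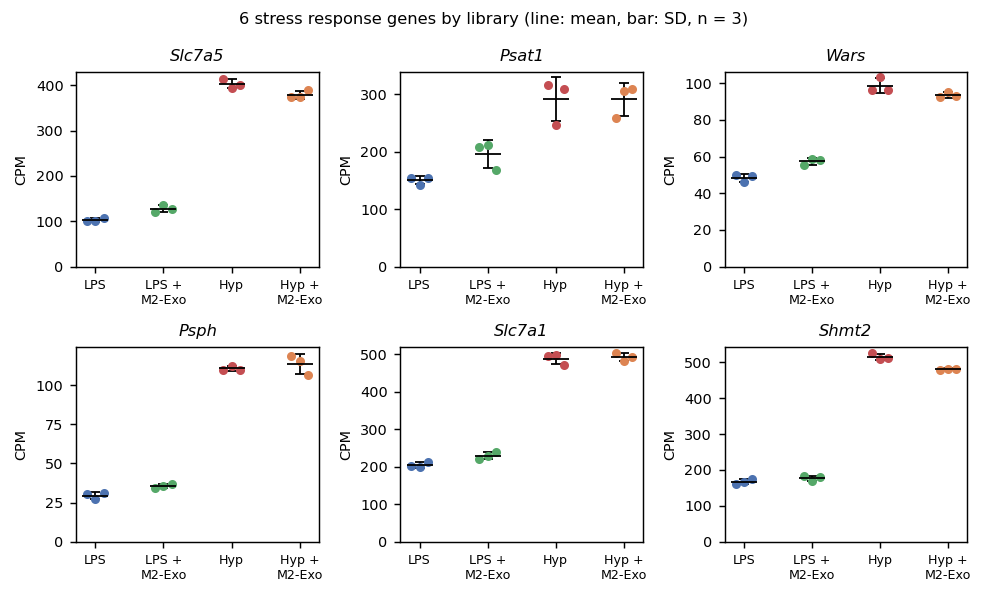
CPM in each library for 6 genes with an unadjusted p under 0.05 for M2-Exo or for the interaction; points are libraries, the line is the group mean and the bar the SD (n = 3), on axes from 0. Slc7a5 goes from 100.2 to 106.9 CPM in LPS to 119.6 to 136.5 CPM with M2-Exo, and from 393.8 to 413.3 CPM in Hyp to 372.9 to 389.2 CPM with M2-Exo.

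Genes of the same and of a neighbouring pathway were read beside the 42. Of 16 other ATF4 targets, 13 could be tested in Hyp against LPS, and 10 were called higher and 1 lower, with a median log2 fold change of 0.61. In this comparison 38.0% of all genes tested were called higher and 37.8% lower. Slc7a11, the cystine importer that supplies glutathione synthesis, was higher in Hyp by 1.28 ± 0.05. Gdf15, a stress-induced cytokine, was higher by 1.42 ± 0.23, while Klhl24 was lower by 1.82 ± 0.04. Gdf15 was read at a very low level, at 0.7 to 0.88 CPM in LPS. Of 12 other cytosolic tRNA synthetases 11 were called higher and 1 lower, with Yars at 1.36 ± 0.04 and Mars at 0.94 ± 0.04. The glutamine enzyme Qars, at -0.59 ± 0.04, was the one called lower.

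Other parts of the eIF2α machinery moved less. Of 14 such genes 11 were called higher and 2 lower, against 38.0% and 37.8% of all genes. None was called at 2-fold or more, and the median was 0.43. Eif2s1, which encodes eIF2α, was higher by 0.81 ± 0.04 and the exchange factor subunit Eif2b2 by 0.81 ± 0.06, whereas Eif2ak2, the double-stranded RNA kinase PKR and an interferon target, was lower by 0.77 ± 0.06.

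The XBP1 and ATF6 arms of the unfolded protein response did not share one direction. Of 19 genes 9 were called higher and 7 lower, against 38.0% and 37.8% of all genes, with a median of 0.13. Atf6 itself was higher in Hyp by 1.22 ± 0.03 and the IRE1 gene Ern1 by 1.08 ± 0.04. The chaperone Hspa5 (BiP), a common readout of this response, differed by 0.25 ± 0.16 and did not pass (adjusted p = 0.191, edgeR). With M2-Exo in both injuries, Hspa5 passed at 0.44 ± 0.16 (adjusted p = 0.039, edgeR), with overlapping groups, and Slc7a11 was higher by 1.64 ± 0.07.

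With M2-Exo, none of these neighbouring genes passed by edgeR in LPS, in hyperoxia or in the interaction. In LPS, Slc7a11 was lower with M2-Exo in all 3 libraries, at -0.31 ± 0.08 (adjusted p = 0.226, edgeR), and in hyperoxia its value was 0.057 ± 0.041. The interaction for Slc7a11 was 0.37 ± 0.09 (adjusted p = 0.243, edgeR). Hspa5 differed by 0.076 ± 0.032 with M2-Exo in LPS and by 0.26 ± 0.22 in hyperoxia.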

How the data were processed

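RNA of 12 MLE-12 libraries was sequenced on polyadenylated RNA. For every gene the authors deposited raw read counts and FPKM values, and per the labels' processing notes they used HISAT2 2.0.4, StringTie 1.3.0 and edgeR on GRCm38; the annotation, the counting program and the use of strand are not given in the sources used here. The deposited FPKM followed from the counts, gene length and library total to a relative 5.6e-05 over 12285 genes. 0 columns of values were left unused.

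Tests on the counts were run with edgeR 4.0.16 under R 4.3.3 (filterByExpr, TMM, quasi-likelihood F test), on the 6 libraries of each comparison and on 12 for the interaction, with Benjamini-Hochberg adjustment over all genes tested and a threshold of 0.05. The fits were tested on simulated data. CPM were scaled by TMM over 12 libraries. DESeq2 1.42.0, limma 3.58.1 on log2(FPKM + 1) and log2(FPKM + 0.1), other scalings and filters, a replicate block and each library left out were the alternatives; counts at an unadjusted p or at 2-fold were added after the data had been seen.

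The 42 genes and the lists beside them were chosen with earlier results of these data known. Values in each library were given for Atf4, Ddit3, Trib3, Chac1 and Asns, for genes called with M2-Exo, and for the 3 called genes of largest change in each direction between both injuries. Neighbouring genes were named from at most 2 called genes of a list per comparison, and Slc7a11 and Hspa5 in any case; Eif2ak2 and Qars were named after their values had been seen. Not every promoter window with a match is reported here. Overlap with other genes was found for 13 of the 42, and stretches of at least 100 bases at 97% identity for 10. The replicate numbers gave no clear pairing of the libraries. The largest correlation between deviations of libraries of the same number was 0.0594, for Hyp + M2-Exo 2 and Hyp 2.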

Additional observations from a re-analysis of the deposited data

Results flagged for a closer look

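With M2-Exo, 2 of the 42 genes were higher than without it in every LPS library and lower in every hyperoxia library. For Slc7a5 the log2 fold changes were 0.31 in LPS and -0.093 in hyperoxia, a difference of -0.401 with an unadjusted p of 4.4e-05 and an adjusted p of 0.0775 in edgeR's interaction test. For Wars they were 0.24 and -0.082, a difference of -0.321 with an unadjusted p of 0.0005 and an adjusted p of 0.202. Neither difference passed the adjusted threshold in that test.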

How the results depend on the processing

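For hyperoxia against LPS, the counts of genes called among the 42 stayed between 38 and 40 over the alternatives without M2-Exo and between 36 and 39 with it. The median log2 fold change of the 42 moved to 1.27 and 1.15 with library size alone, to 1.02 and 0.952 with limma on log2(FPKM + 1), with or without its filter, and to 1.23 and 1.11 with a pseudocount of 0.1. Leaving out 1 library gave medians of 1.02 to 1.09 with M2-Exo. Several values changed sign: without M2-Exo, Eif2ak3 was 0.0865 with library size alone, 0.00574 with at least 10 counts in every library, 0.0789 and 0.0855 with limma at pseudocounts of 1 (also without filter) and 0.1, and 0.0171, 0.0188 and 0.00184 without LPS replicate 3, Hyp replicate 2 or Hyp replicate 3 (-0.0233 to 0.0188 over the left-out libraries), and Pycr1 was 0.0255, 0.0233 and 0.0257 with library size alone and with limma at 1 (also without filter) and 0.1, and 0.00458 without LPS replicate 3 (-0.124 to 0.00458 over the left-out libraries). Without the filter, limma called Eif2ak3 higher in Hyp (adjusted p = 0.0466). Cebpb was -0.027 without LPS replicate 1 (-0.027 to 0.0615 over the left-out libraries). With M2-Exo, Eif2ak3 was 0.00601 with library size alone and 0.00464 and 0.00496 with limma at 1 (also without filter) and 0.1, and Mthfd1l was -0.00817 and -0.00532 without LPS + M2-Exo replicate 1 or Hyp + M2-Exo replicate 1 (-0.00817 to 0.0743 over the left-out libraries).

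For M2-Exo in LPS, edgeR called 0 of the 42 genes, DESeq2 2, the fit of all 12 libraries 1, and leaving out 1 library 0 to 1. Over all genes the calls went from 25 to 130 with DESeq2, 12 with limma at 0.1, 12 with all 12 libraries and 21 to 39 without 1 library. The unadjusted count of 15 ranged from 9 to 15 without 1 library and from 10 to 21 over the other alternatives, and Atf4 was -0.0115 and -0.0215 without LPS replicate 2 or LPS + M2-Exo replicate 3 (-0.0215 to 0.0513 over the left-out libraries). In hyperoxia, 0 of the 42 were called throughout. Calls over all genes went from 14 to 37 with DESeq2, 4 with limma without filter and 2 with all 12 libraries, the unadjusted count of 5 ranged from 1 to 7 and the median from -0.0084 to 0.0111 without 1 library. For the interaction, 0 of the 42 became 1 without the filter on low counts, 2 with DESeq2 and 0 to 1 without 1 library. Calls over all genes went from 5 to 13 without the filter, 70 with DESeq2, 11 with limma without filter and 4 to 34 without 1 library. The median ranged from -0.122 to -0.0767 and the unadjusted count of 11 from 6 to 17. The cause of these changes was not tested.

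With the replicate block, calls over all genes were 6 in LPS, 8 in hyperoxia and 3 in the interaction, and among the 42 the call of Pycr1 with M2-Exo was lost (adjusted p = 0.055, edgeR). The replicate numbers gave no clear pairing of the libraries.

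Among the 42 genes depth was lowest for Cth, at 46 to 77 counts a library in the groups with LPS, where Ddit3 had 157 to 228.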
